A study of Bos taurus with 2 samples.

Results

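The short arm of the cattle Y chromosome carries, between the pseudoautosomal region (PAR) and the TSPY array, a stretch of single-copy and repetitive sequence that belongs to the male-specific region (MSY). The MSY is the portion that does not exchange sequence with the X chromosome. The stretch ran from 6900001 to 9165000 of chromosome Y, in positions of ARS-UCD2.0 counted from 1, and its members were 5 kb bins lying wholly inside these limits that held at least 5 CpG sites with 10 or more PacBio reads. Bins touching 7430000 to 7870000 were excluded by position, so that 89 of 453 bins, from 7425001 to 7870000, were left out. The other 364 bins passed the minimum of CpGs and reads, with 9 to 291 CpGs each, and made up 364 of 11882 bins of the whole chromosome. The rule used position, CpG number and read depth, and no methylation level.

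Methylation of cytosines in CpG dinucleotides is a stable mark that vertebrate cells place on most of the genome. It is usually high inside transcribed genes and low at CpG islands, which are short CpG-rich stretches that often hold the promoters of widely expressed genes. The male-specific genes next to the PAR include single-copy survivors of the ancestral chromosome pair shared with the X, such as ZFY, a zinc finger transcription factor, and USP9Y, a deubiquitinating enzyme. The TSPY family, by contrast, is a testis-expressed family present in many tandem copies.

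DNA labelled as lung was sequenced on PacBio HiFi, which reads methylation from polymerase kinetics, and on Oxford Nanopore (ONT), which reads it from the current through a pore. Each platform had 1 library, so no test across samples was possible and the differences below are descriptions of these 2 libraries. The assembled chromosome was, in the study, the Wagyu haplotype of a male fetus from a Wagyu sire and a Charolais dam, and the labels of the methylation samples name neither breed nor age. Lung is a mixture of cell types, and levels below are averages over them.

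The 364 bins held 24855 CpGs, or 2.55% of those used on the chromosome, with 966896 PacBio read observations and a median depth of 36 reads per CpG (5th percentile 23, 95th percentile 59, highest 246). A single CpG at that depth with 25 modified reads had a level of 69.4% with a Wilson 95% interval of 53.1% to 82%, and the median bin, with 1759 read observations over its CpGs, had a half-width of 2.09 percentage points. These intervals cover counting error only, and those over several CpGs are too narrow, since calls on the same molecule are counted as independent. No depth was available for ONT, and 3.10% of its 49710 single-strand values in the stretch were exactly 0.

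CpG methylation of the stretch was high on average and very uneven along it. The PacBio level was 71.7% ± 17.7 (SD over 364 bins, which are not replicates), with a median of 75.7% and bins from 5.18% to 96.0%. The ONT level was 62.3% ± 16.7 (SD over the same bins), with a median of 66.3%, and ONT minus PacBio was -9.40 ± 4.32 percentage points. The platforms ordered the bins alike, with a Pearson correlation of 0.97 over 364 bins and 0.86 over 24855 CpGs; these points share the DNA source and the CpG positions. In the even TSPY-side sequence described below it was 0.65 over 58 bins and 0.69 over 12326 CpGs. The PacBio level was under 50% in 35 bins (9.62%), against 38.6% of all bins of the chromosome. On ONT 82 bins (22.5%) were under 50%, against 63.1% of the chromosome. ONT exceeded PacBio in 6 bins of the stretch, and in 2.22% of all bins.

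The profile fell into 3 pieces, whose edges were set after the profile was seen and whose comparison is therefore a description. The first inner edge was the end of the bin with the last long unmethylated segment (defined below). The second was the start of the unbroken run of CpG-dense bins. The PAR-side piece (6900001 to 8150000, 161 bins) held highly methylated sequence interrupted by narrow unmethylated segments. In the middle piece (8150001 to 8875000, 145 bins) levels were intermediate. The TSPY-side piece (8875001 to 9165000, 58 bins) was CpG-dense and almost even. The mean PacBio levels were 79.9% ± 20.5, 60.0% ± 9.65 and 78.1% ± 2.06 in that order (SD over bins). The ONT means, at 70.4% ± 19.3, 50.4% ± 7.28 and 69.5% ± 1.65, had the same order. With CpGs weighted equally, the PAR-side piece fell below the TSPY-side piece and closer to the middle piece, at 67.3%, 62.6% and 78.1% on PacBio and 59.1%, 52.6% and 69.5% on ONT. Of the 35 PacBio bins under 50%, 14 lay in the PAR-side piece, 21 in the middle piece and 0 in the TSPY-side piece. The median depth per CpG was 47, 41 and 31 reads in the 3 pieces.

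**Figure D1:**
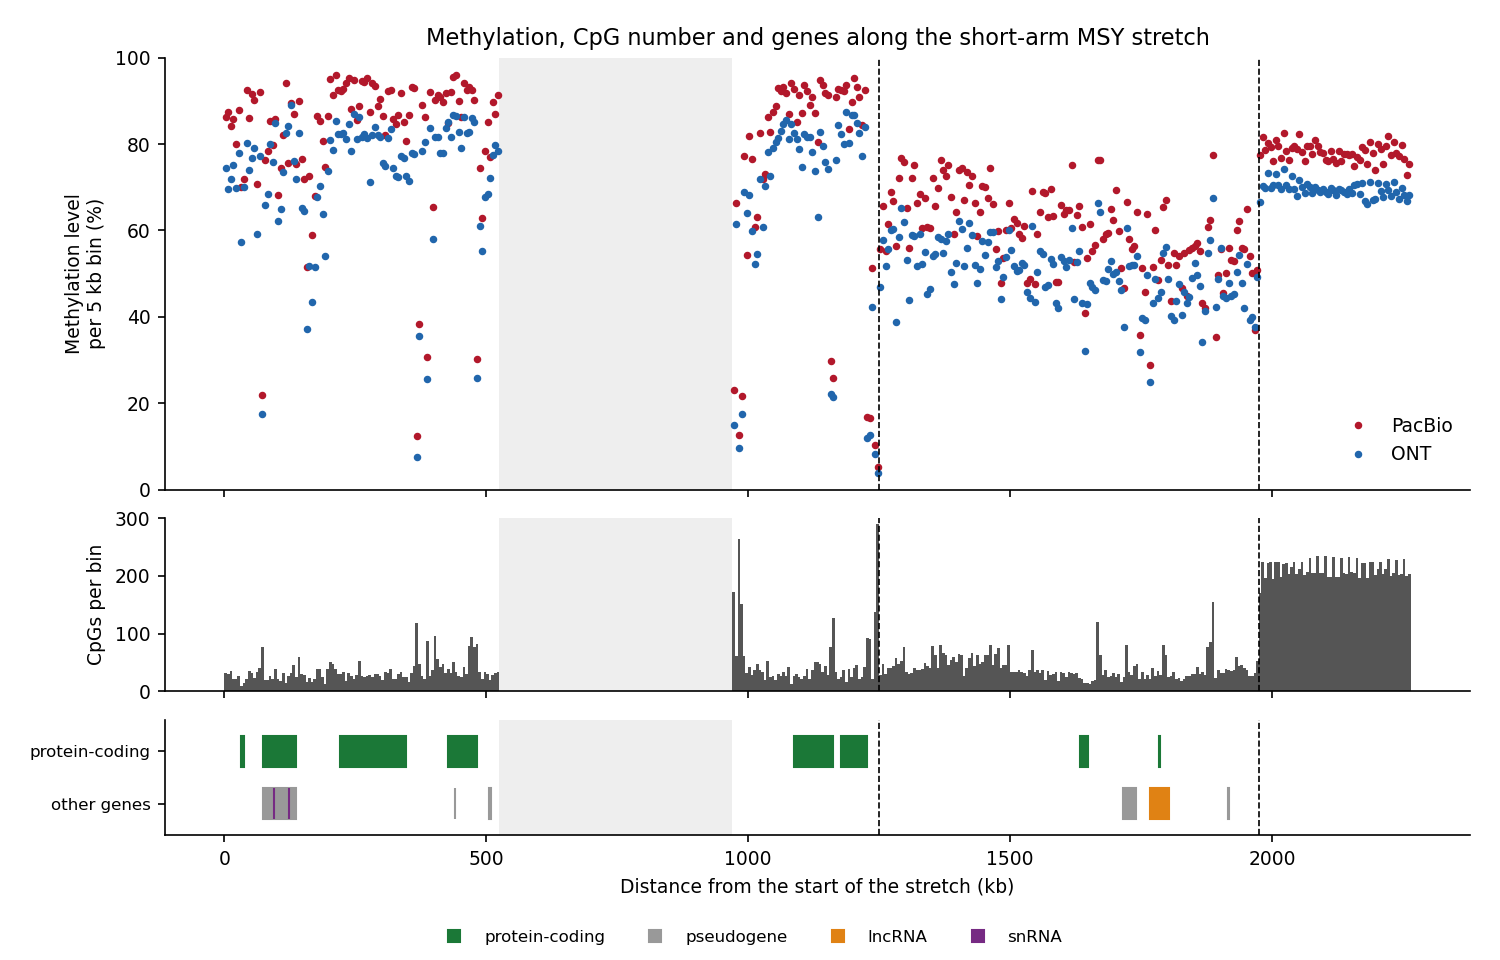
Methylation level of each 5 kb bin in percent (PacBio red, ONT blue; 1 library each), the number of CpGs per bin and the annotated genes, against distance from the start of the stretch in kb. Grey marks the 89 bins left out, and dashed lines mark the edges of the 3 pieces: high levels with deep dips, then a band around 60.0% on PacBio, then an even band around 78.1% over CpG-dense bins.

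Single CpGs differed between the pieces in the distribution of their levels, and not in their mean alone. In the PAR-side piece 60.7% of 6570 CpGs had a PacBio level of at least 80%, 22.3% were at or under 20%, and 16.9% lay between. In the middle piece 62.0% of 5959 CpGs lay between 20% and 80%, and 6.41% were at or under 20%. In the TSPY-side piece 61.6% of 12326 CpGs reached 80% and 1.27% were at or under 20%. ONT placed a similar share of the PAR-side CpGs at or under 20% (23.3%) and a smaller share at or above 80% (40.1%). In the middle piece, ONT left 82.9% of CpGs between these bounds. It also left most CpGs of the TSPY-side piece there (69.1%), with 30.1% at or above 80%. The mean SD of PacBio levels inside a bin was 13.5 percentage points in the PAR-side piece, 22.6 in the middle piece and 18.7 in the TSPY-side piece. CpGs of the same bin differed most in the middle piece.

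**Figure D2:**
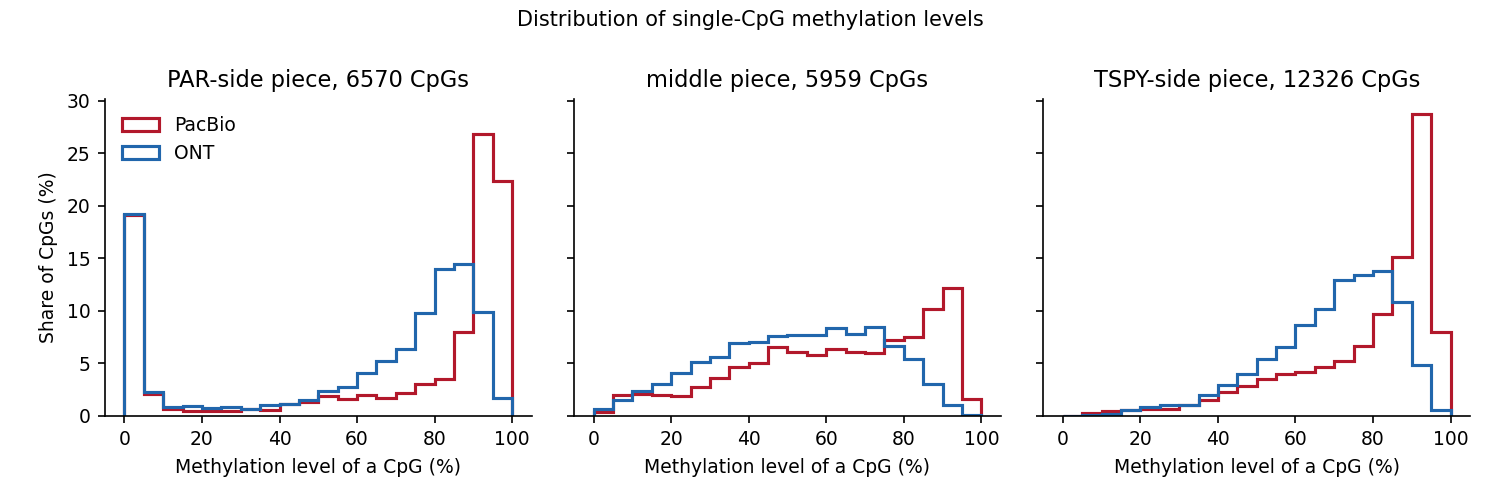
Share of CpGs in percent by methylation level, in classes of 5 percentage points, for the 3 pieces (PacBio red, ONT blue; 1 library each). The PAR-side piece has a peak at the lowest levels, where the ONT line covers the PacBio line, and another at the highest levels, while the middle piece is spread over intermediate levels.

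In the PAR-side piece, CpGs of low level lay mostly in a small number of segments. A segment was a run of at least 5 successive CpGs, each at or under 20% on PacBio, with neighbours at most 500 bp apart. The stretch held 21 segments with 1435 CpGs, which was 5.77% of its CpGs against 1.82% of the CpGs of the chromosome. Per length they were fewer, at 11.5 segments per Mb against 23.3 per Mb over the chromosome. Of the 63 segments on the chromosome with 50 or more CpGs, 9 lay in the stretch, all 9 in the PAR-side piece. That piece was drawn to end behind the last long segment, so these 9 could not lie in another piece. The PAR-side piece held 15 segments and the middle piece 6 with 5 to 8 CpGs each. The TSPY-side piece held 0 segments. The PAR-side segments took 1401 of its 6570 CpGs, and 1.28% of the CpGs outside them were at or under 20%. Segments of the middle piece took 34 of 5959 CpGs, and 5.87% of the others were at or under 20%, so low CpGs there lay mostly outside segments.

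The segment with the most CpGs in the stretch also had the most on the chromosome. It spanned 8143722 to 8147860 (4139 bp, 373 CpGs) and had a PacBio level of 3.48%, with 539 of 21721 read observations estimated as modified (2.48%, Wilson 95% interval 2.28% to 2.70%). The ONT level there was 2.15%, with 2.16% and 2.15% on its lower and upper rows. It overlapped no annotated gene and lay 17630 bp beyond the high end of LOC132344468, a protein-coding gene without a given name. The next by number of CpGs, at 7882572 to 7886452 (329 CpGs), also lay outside annotated genes, 16222 bp from LOC132342139, which is a gene of the excluded interval. Its PacBio level was 3.62% and its ONT level 1.7%. The segment at 8058929 to 8061342 (136 CpGs) contained the high end of ZFY and had levels of 3.39% on PacBio and 1.67% on ONT. The segment at 7267593 to 7269663 (101 CpGs; 3.36% and 1.60%) lay 20369 bp past the high end of USP9Y. The segment at 7870592 to 7871393 (95 CpGs; 3.94% and 2.3%) stood directly behind the excluded interval.

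At least 30 CpGs were held by 10 segments, a limit chosen after the values were seen. Their PacBio levels ran from 3.16% to 5.15%. The ONT levels, which the segment rule did not use, ran from 1.60% to 3.94%. CpGs outside segments at 2 to 5 kb from the segment were at 39.9% to 91.0% on PacBio. Of these 10 segments, 4 contained the end of an annotated gene, namely OFD1Y, ZRSR2Y, ZFY and LOC132344468, and the other 6 lay more than 1 kb from any gene end. The 11 shorter segments, with 5 to 18 CpGs, were less alike between platforms, with 2.87% to 9.78% on PacBio and 1.81% to 35.6% on ONT.

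**Figure D3:**
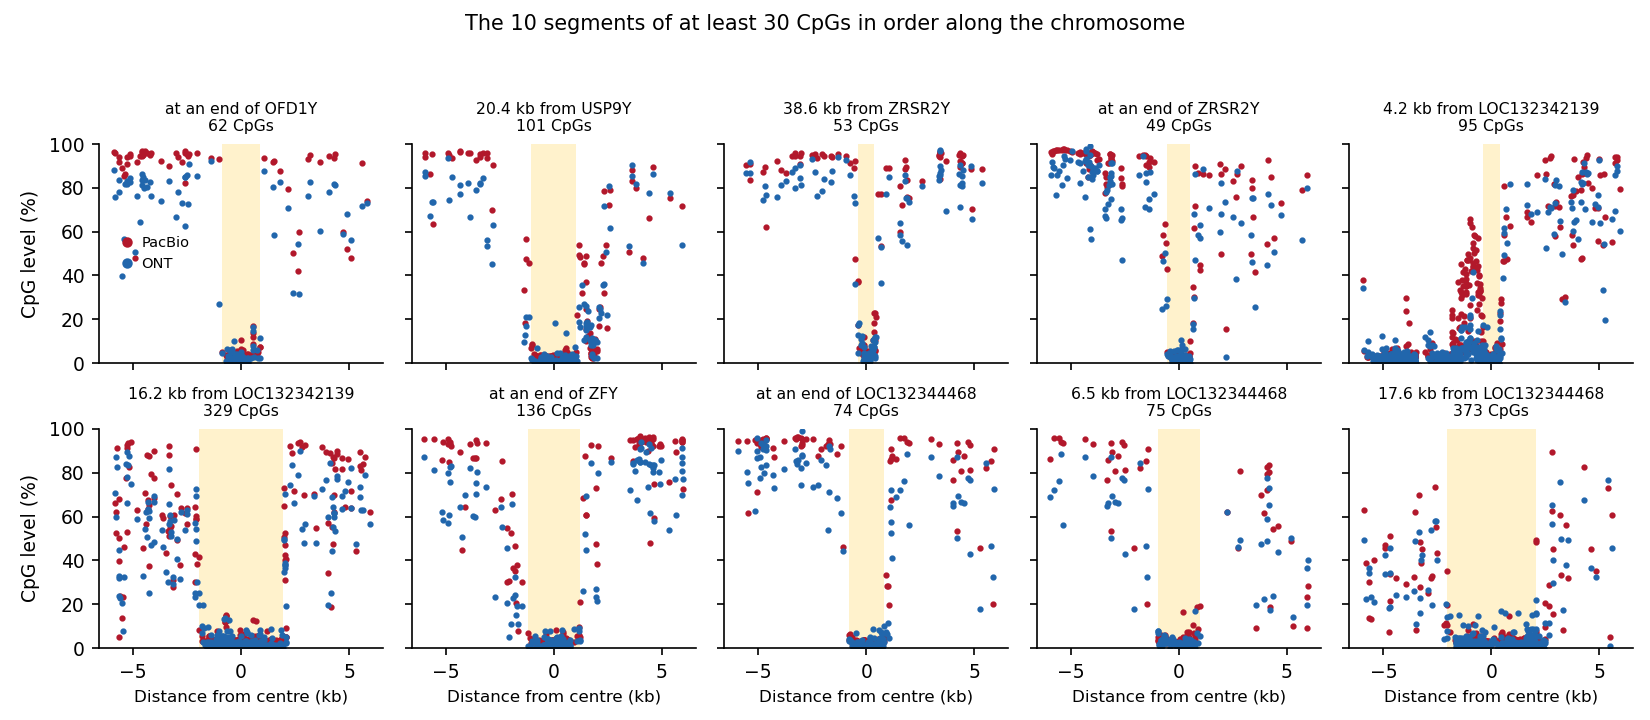
Methylation level of single CpGs in percent around the 10 segments of at least 30 CpGs, against distance from the segment's centre in kb (PacBio red, ONT blue; the shaded band is the segment). Mean levels inside the bands are at most 5.15% on PacBio and 3.94% on ONT; next to the segment 4.2 kb from LOC132342139, PacBio CpGs on the left are intermediate while ONT CpGs are low.

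The first bin after the excluded interval held CpGs at which the platforms parted. Its 44 CpGs before the segment, at 7870001 to 7870591, averaged 33.9% on PacBio (3.70% to 66.0%) but 7.24% on ONT, at 73 PacBio reads per CpG. The last 1 kb of the excluded interval showed the same order, where 84 CpGs averaged 16.5% by PacBio and 4.38% by ONT. The whole bin was at 23.2% on PacBio and 14.8% on ONT, and the last excluded bin at 6.35% and 2.38%. At the other edge of the exclusion, levels were high on both sides, with 91.5% on PacBio in the last kept bin and 86.1% in the first excluded bin. At the start of the stretch, the bin just outside was at 86.9% and the first bin inside at 86.2%. At its end these values were 75.3% inside and 75.1% outside.

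Annotated genes were examined by their ends (1 kb on both sides of the first and last base) and bodies (from 2 kb inside both ends). The gene table gives no strand, so the ends are named low and high by coordinate and neither is called the start. It lists 16 genes overlapping kept bins. Values are given where at least 5 CpGs were measured.

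On the PAR side, gene bodies were highly methylated and single gene ends were not. OFD1Y, the Y-linked relative of OFD1, a gene for a protein of centrioles and cilia, is entered as both a pseudogene (LOC100271757) and a protein-coding gene (LOC100335202) over the same span, 6973860 to 7037467. Its low end was at 5.97% on PacBio and 4.39% on ONT (62 CpGs), while its high end was at 63.7% and 60.7% (8 CpGs). Its body was at 82% on PacBio and 76.7% on ONT.

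ZRSR2Y, the Y copy of a splicing factor gene, spanned 7326343 to 7381809 and had the opposite layout. Its low end was at 83.3% on PacBio and 85.9% on ONT. Its high end was at 15.5% and 13.3% (64 CpGs), and with windows of 500 bp at 3.16% and 2.85%. The body reached 92.2% on PacBio and 84.4% on ONT, the highest of the gene bodies measured in the stretch on both platforms.

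ZFY (7987375 to 8061279) was at 92.4% on PacBio at its low end, 87.2% in its body and 11% at its high end (81 CpGs). On ONT these levels were 79.3%, 74.4% and 6.80%. LOC132344468 (8077502 to 8126092) had the same shape, with 93.6% at the low end, 90.8% in the body and 3.74% at the high end (75 CpGs). Its ONT levels were 84.2%, 83.3% and 2.65%.

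USP9Y (7120084 to 7247224) differed from these 4. Its low end was at 84.9% on PacBio (6 CpGs) and its high end at 68.3% (8 CpGs), so neither was unmethylated over the CpGs measured. On ONT the ends were at 67.3% and 65.2%. Its body, over 705 CpGs, was at 90.3% on PacBio and 80.3% on ONT. The small protein-coding gene LOC132344423 had 76.4% on PacBio at its high end and fewer than 5 CpGs at its low end.

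The other genes on this side were short and methylated at their ends. The snRNA genes LOC132344723 and LOC132344722, which lie inside OFD1Y, had end levels of 88.4% and 92.3%, and of 77.6% and 77.5%, on PacBio. Depth at LOC132344722 was 99 reads per CpG, against a median of 47 in the piece, and its ONT levels (83.8% and 82.8%) exceeded PacBio. The pseudogenes LOC100336906 and LOC132344424 had PacBio end levels of 95.7% and 95.8%, and of 87.0% and 81.1%. Both snRNA genes and LOC100336906 are shorter than 1 kb. The windows at their low and high ends therefore overlap for the most part and are not separate measurements.

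The 5 genes of the middle piece lay in sequence of intermediate level. Their own levels were mostly intermediate too, with lower values at the low ends of LOC132344570 and LOC100126816. The body of the protein-coding LOC101902149 was at 54.0% on PacBio and 40.5% on ONT (43 CpGs), and its low end at 62.7% and 50.9%. The pseudogene LOC132344425 had a body at 60.6% and ends at 47.2% and 52.1%, the latter at 32.6% with windows of 500 bp. The lncRNA gene LOC132344570 had a body at 58.7% on PacBio and a low end at 27.4% over 5 CpGs. The protein-coding LOC100126816, inside the span of that lncRNA gene, had ends at 21.1% (7 CpGs) and 71.2%. The pseudogene LOC132344571 had ends at 49.4% and 57.6%.

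Bins overlapping a gene were more methylated than the others over the whole stretch, by 9.87 percentage points on PacBio (78.8% in 101 bins against 69.0% in 263 bins) and by 10.96 on ONT. With CpGs rather than bins weighted equally, the difference shrank to 3.95 and 4.62 percentage points. Within the PAR-side piece it was 8.94 on PacBio and 10.5 on ONT (82 bins against 79). The medians there were 89.7% and 86.0% on PacBio, closer than the means, and 81.1% and 71.9% on ONT. Over the whole stretch the medians were further apart than the means, at 86.8% and 72.1% on PacBio and 78.1% and 59.6% on ONT. Within the middle piece it ran the other way, at -5.43 on PacBio and -3.77 on ONT (19 bins against 126). The TSPY-side piece had 0 gene bins and 58 others.

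The relation of methylation to CpG density also differed in sign along the stretch. Over all 364 bins, the CpG-richest 25% minus the CpG-poorest 25% gave -4.43 percentage points on PacBio (68.8% against 73.3%) and -3.48 on ONT, where the sign turned to 1.78 once CpGs with an ONT value of 0 were left out. In the PAR-side piece the difference was -16.5 on PacBio and -14.6 on ONT. In the middle piece dense bins were higher, at 67.7% against 53.7% on PacBio, a difference of 14.0, and of 11.5 on ONT. In the TSPY-side piece it was 1.93 and 1.15. Spearman's rho between CpG number and PacBio level was 0.56 over the 145 bins of the middle piece, -0.07 over the 161 bins of the PAR-side piece and 0.39 over the 58 bins of the TSPY-side piece. Over all 364 bins it was -0.01.

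Levels also differed with the spacing of single CpGs. In the middle piece the PacBio level fell from 78.2% at CpGs whose nearest neighbour was within 10 bp to 67.4% at 11 to 30 bp, 54.0% at 31 to 100 bp, 50.9% at 101 to 300 bp and 49.3% beyond 300 bp. ONT fell from 67.8% to 39.1% over these classes. The TSPY-side piece fell from 84.1% to 73.8% and 60.8% on PacBio over the 3 classes it filled. In the PAR-side piece the order was reversed, with 46.0% at the closest CpGs and 82.7% at the most isolated. Leaving out the low-methylation segments, which were chosen for low PacBio levels and held 1083 of the 2228 closest CpGs, gave 86.1% to 83% on PacBio and 76.7% to 71.1% on ONT, values that depend on this selection. The last 1 Mb of the PAR gave 74.6% to 78.4% over 4 classes with its segments and 83% to 78.9% without them. The MSY from the end of the stretch to the centromere fell from 83.2% to 28.2% over its CpGs. Median depth per class stayed between 46 and 49 reads in the PAR-side piece and between 41 and 43 in the middle piece.

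**Figure D4:**
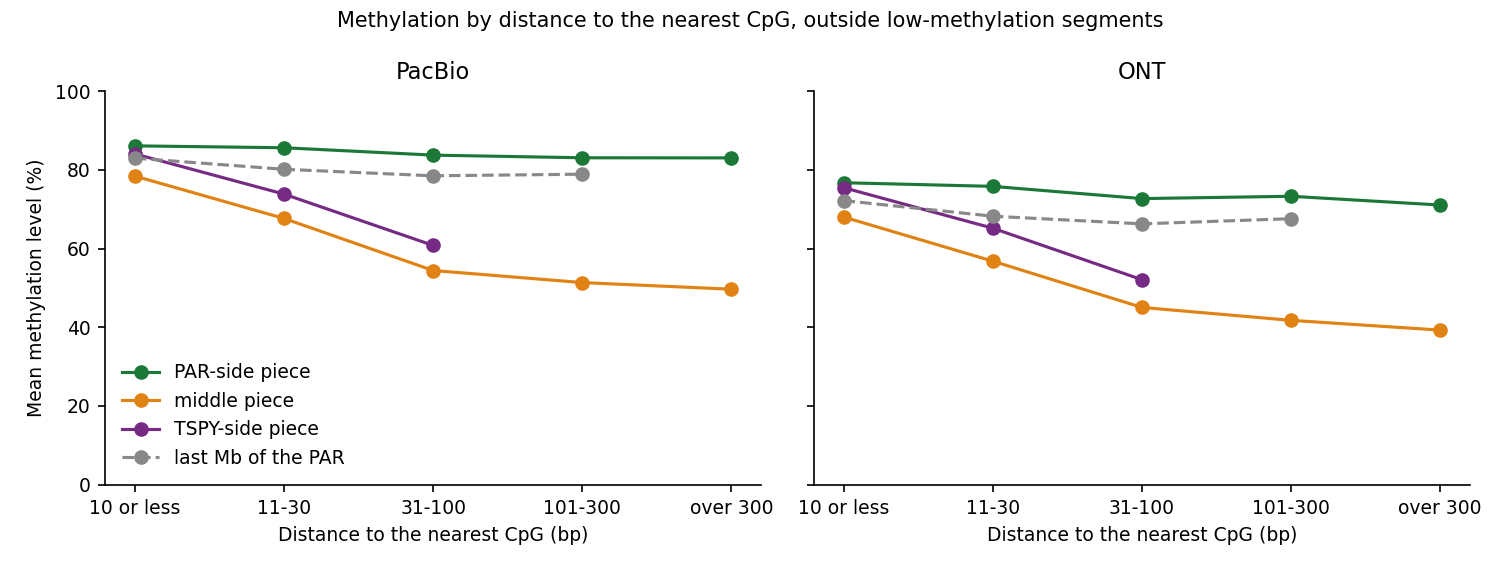
Mean methylation level in percent against distance to the nearest CpG in bp, for CpGs outside low-methylation segments (left PacBio, right ONT; 1 library each). The middle and TSPY-side pieces fall with distance, and the PAR-side piece and the last 1 Mb of the PAR change little once their segments, chosen for low PacBio levels, are left out.

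PacBio levels also declined along most of the middle piece. Windows at its ends, which also held bins of a neighbouring piece, are not given. From the window starting at 8200001 to that starting at 8700001, the PacBio means of successive windows of 100 kb were 67.5%, 65.7%, 59.8%, 61.8%, 55.0% and 52.7% (20 bins each). The SD over bins within these windows ran from 5.97 to 10.5. On ONT the means were 53.5%, 55.1%, 50.3%, 50.5%, 46.6% and 46.9%, so that ONT minus PacBio went from -13.9 to -5.78 percentage points over the same distance. The number of CpGs per bin in these windows lay between 31.8 and 56.3, and the first 2 windows had the most.

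The 5 lowest PacBio bins all held segments, which were themselves selected for low PacBio levels, and the 3 highest held none. The 5 lowest on PacBio began at 8145001 (5.18%; ONT 3.75%; 291 CpGs), 8140001 (10.3%; 8.20%), 7265001 (12.4%; 7.44%), 7880001 (12.8%; 9.68%) and 8130001 (16.6%; 12.6%). None of these overlapped an annotated gene. The 3 highest began at 7110001 (96.0%; ONT 85.3%), 7340001 (95.9%; 86.6%) and 7335001 (95.5%; 86.7%). The first of these was the highest PacBio bin of the chromosome, and the other two lay within ZRSR2Y.

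The bins at both ends of the difference between platforms held 12 to 31 CpGs. ONT lay furthest below PacBio in the bins at 8465001 (46.9% against 68.7%), 7060001 (51.7% against 72.6%) and 7090001 (54.1% against 74.8%). It lay furthest above in the bins at 7895001 (64.1% against 54.3%), 7020001 (84.1% against 75.6%) and 8790001 (42.2% against 35.3%). The bin at 7020001 lies in OFD1Y and had a depth of 99.5 reads. The bin at 7895001 held a segment of 7 CpGs with a depth of 237 reads, an 8.46% level on PacBio and 35.6% on ONT. Depth was high at both places, but the bin at 8790001 had 32 reads. The part of depth in the differences was not tested. The deepest bins, at 7005001, 6980001 and 7000001, were also in OFD1Y, with 114.5, 107 and 104.5 reads, and their PacBio levels were 74.3%, 78.3% and 68.1%. Their ONT levels were lower, at 65.0%, 68.5% and 62.2%.

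The TSPY-side piece held 12326 of the 24855 CpGs in 58 of the 364 bins, with 212.5 CpGs per bin against 40.8 in the PAR-side piece and 41.1 in the middle piece. This piece was drawn to begin with the run of CpG-dense bins, so its high CpG number follows in part from that choice. Its bins lay between 72.7% and 82.5% on PacBio and between 66.1% and 74.2% on ONT. No gene was annotated in it. The first gene beyond the stretch, TSPY, began at 9169601, 4601 bp past its end.

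Some CpG positions in this piece recurred at a fixed distance. Among distances from 1 to 12 kb, 7533 bp separated 1611 pairs of its CpGs, against a median of 512 pairs. Such a partner existed for 13.1% of the CpGs in the piece. The 2 CpGs of such pairs had correlated levels, with Pearson's r of 0.66 on PacBio and 0.76 on ONT over 1611 pairs, while at distances 1 or 1.5 kb shorter or longer r lay between -0.04 and 0.11 on both platforms. Pairs share CpGs and local sequence, so these are descriptions. In the 500 kb after the stretch, which hold 33 protein-coding genes with a median distance of 7464 bp between starts, the corresponding distance was 7397 bp, with 3249 pairs against a median of 912 and r of 0.65 and 0.74. In the PAR-side and middle pieces the most frequent distance, 1012 bp, lay at the edge of the distances searched and had 134 and 83 pairs against medians of 57 and 52. Levels of the PAR-side pairs had r of 0.86 on both platforms at that distance, and r of 0.67 to 0.75 over both platforms at distances 1 and 1.5 kb longer. In the middle piece r was 0.15 on PacBio and 0.23 on ONT at 1012 bp, and lay between -0.06 and 0.17 at the longer distances.

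**Figure D5:**
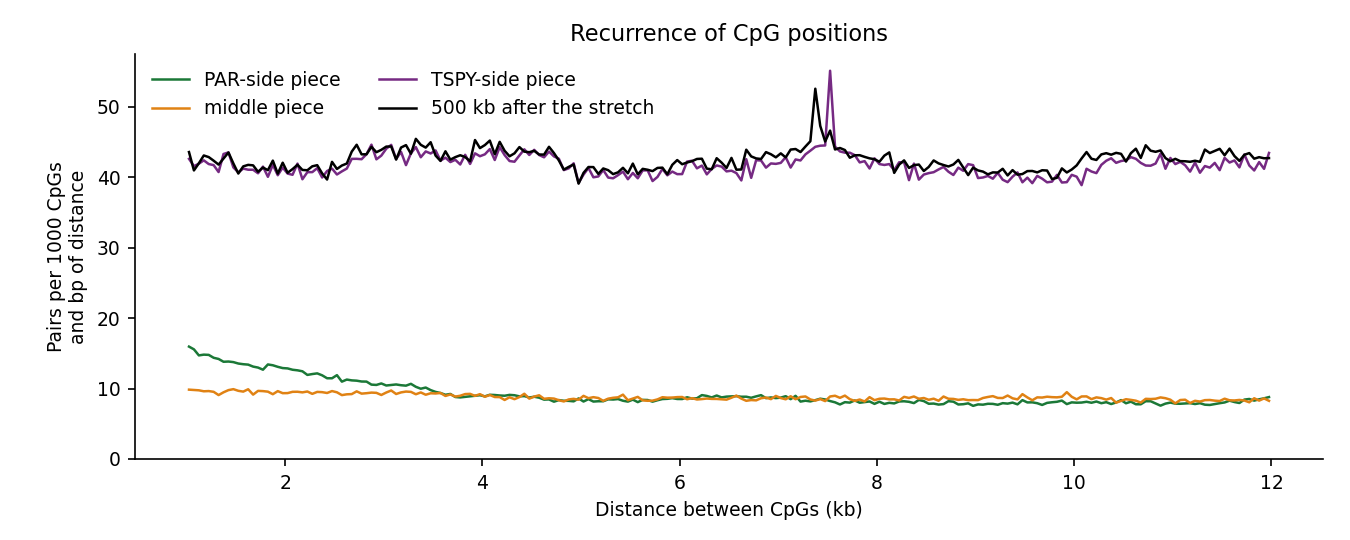
Pairs of CpGs per 1000 CpGs and bp of distance, in classes of 50 bp, against the distance between them in kb, for the 3 pieces and the 500 kb after the stretch. The TSPY-side piece peaks at the class holding 7533 bp, the sequence after the stretch at that holding 7397 bp, and the other pieces have no such peak.

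With bins weighted equally, the stretch as a whole was lower than its neighbours. The PacBio level of the stretch minus that of the 89 excluded bins (80.3%) was -8.64 percentage points. Minus the last 1 Mb of the PAR (78.2%, 199 bins) it was -6.49, and minus the short-arm MSY from 9165001 up to the centromere (74.2%, 991 bins) it was -2.51. On ONT these differences were -9.62, -4.87 and -2.39. With CpGs weighted equally, the difference from the excluded bins changed sign, to 2.41 on PacBio and 0.57 on ONT. That from the MSY up to the centromere became -5.32 on PacBio, and that from the last 1 Mb of the PAR became -2.72 on ONT. On the lower ONT row alone the difference from the MSY up to the centromere was -1.20, and on the upper row alone -3.59. Bins under 50% on PacBio made up 5.62% of the excluded bins, 2.51% of those in the last 1 Mb of the PAR and 5.85% of those up to the centromere. Averaged over bins, the middle piece, at 60.0% on PacBio, was below the means of all 3 regions, and the other pieces, at 79.9% and 78.1%, lay closer to them. Median depth per CpG was 81 reads in the last 1 Mb of the PAR, 64 in the excluded bins and 32 up to the centromere, against 36 in the stretch.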

How the data were processed

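CpG methylation of lung DNA was taken from the PacBio and ONT files, 1 library each. For PacBio, the authors called methylation with Primrose 1.3.0, aligned with pbmm2 1.9.0 and summarised CpGs with pb-CpG-tools 2.3.2. The deposited file gives a score in percent, the count of reads, and modified and unmodified counts that the tool estimated. For ONT, the authors used Dorado 0.3.4 with a model that calls methylated and hydroxymethylated cytosine, Winnowmap 2.03 and modbam2bed 0.6.3, with calls between 20% and 80% probability discarded, and deposited a percent per strand without depth. Discarding uncertain calls can shift ONT levels against PacBio.

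The files run in opposite directions, and PacBio positions were mirrored and ONT positions shifted onto the assembly. The PacBio level was the score, and the ONT level the mean of both rows. Both used the CpGs covered by 10 or more PacBio reads. Bins were averaged without weights. Dense and sparse bins were the top and bottom 25% by CpG number. Genes came from the RefSeq table of ARS-UCD2.0, without strand or sequence, so no promoter sequence was used here. Levels of genes rest on windows of 1 kb at each end.

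Named were every gene overlapping a kept bin, the 5 lowest and 3 highest PacBio bins, the 3 bins with the largest and the 3 with the smallest difference between platforms, and the 5 segments with the most CpGs. The members and lists were chosen with earlier results of these data known. Segments with at least 30 CpGs, the deepest bins, the pieces, the edge CpGs, the windows of 100 kb, the spacing classes and the recurrence distances were chosen after values were seen. Alternatives were coverage minimums of 4 and 20 reads, bins of 10 kb, at least 20 CpGs per bin, CpG weighting, depth and zero filters, single ONT rows, estimated counts, other segment rules and windows of 500 bp. The scripts ran in Python 3.11.15 with pandas 2.3.3 on numpy 2.4.6, scipy 1.17.1 for intervals and correlations and matplotlib 3.10.9 for plots, and were tested on simulated data.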

Additional observations from a re-analysis of the deposited data

How the results depend on the processing

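A level or difference was held to have moved where it shifted by more than 2.09 percentage points, a bar taken from the read observations of the median PacBio bin as if independent, which is narrower than its true counting error and served ONT as well because its depth is unknown, and a count where it changed by more than 1.5 times. Of 142 alternative values for the main results, 127 kept their direction and stayed within these bounds, 12 moved and 3 changed sign. The 127 include 16 from the coverage minimum of 4 reads, which could not alter the stretch, as 0 of its CpGs had under 10 reads. They also include 16 from the minimum of 20 reads, which could alter it little, with a 5th percentile of 23 reads. Weighting CpGs equally turned the difference between the stretch and the excluded bins to 2.41 on PacBio and 0.57 on ONT. It moved the difference between gene bins and others to 3.95 on PacBio and 4.62 on ONT, that from the MSY up to the centromere to -5.32 on PacBio, and that from the last 1 Mb of the PAR to -2.72 on ONT. Under this weighting the stretch itself stayed at 71.6% on PacBio, while the excluded bins, of which the last has 402 CpGs at 6.35%, went from 80.3% to 69.1% and the MSY up to the centromere from 74.2% to 76.9%. For the pieces, where the weighting was tried after seeing the data, it gave 67.3% and 62.6% on PacBio and 59.1% and 52.6% on ONT for the PAR-side and middle pieces. Without CpGs with an ONT row at 0, dense minus sparse bins became 1.78 on ONT, and the cause was not tested. Bins of 10 kb left 21 bins under 50% on PacBio and 45 on ONT, with fewer bins by construction. A minimum of 10 CpGs left 13 segments. Moving both inner edges of the pieces by 25 kb towards the PAR, an alternative chosen after seeing the data, gave 76.0% on PacBio for the TSPY-side piece. Of 240 alternative values for gene ends and bodies, 17 moved, all with windows of 500 bp. With these windows 33 others stayed, among them the bodies, whose limits do not depend on the window. The coverage minimum of 4 reads gave 76 of the 240 values and could not alter them. The planned promoter levels were not run, as no promoter sequences or strands were used here. No paired analysis was possible because each platform holds 1 library. Depth limits single CpGs, as their intervals above show, and ONT zeros cannot be divided into measured and missing values.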
